A study of Homo sapiens with 4 samples.

Results

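The RNAs described here are 8 long noncoding RNAs of the human glioma cell line U87: the nuclear RNAs MALAT1, NEAT1, TUG1, KCNQ1OT1 and MEG3, and the microRNA host RNAs MIR22HG, MIR17HG and DLEU2. They were taken by symbol from the deposited table, where each matched 1 row, so that they make up 8 of its 57820 genes. The tested cells carried a short hairpin RNA labelled shGlud1, directed against the mitochondrial glutamate dehydrogenase gene GLUD1, and the control cells carried a hairpin labelled shNT. Both groups were grown with 10% bovine calf serum and spent 6 h in low glucose before RNA was taken, and each group had 2 libraries. The labels name 1 cell line and no hairpin sequence, clone or vector, and no label states whether the 2 libraries of each group were grown separately. The p-values therefore reflect the differences among 4 libraries, and those may be technical.

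Long nuclear RNAs act as RNA and not through a protein. MALAT1 gathers in nuclear speckles, bodies rich in splicing factors, and NEAT1 is the scaffold on which paraspeckles are built. KCNQ1OT1 and MEG3 are made from imprinted gene clusters, where KCNQ1OT1 silences its neighbours in cis, and TUG1 has been linked to Polycomb repression. Host RNAs such as MIR22HG, MIR17HG and DLEU2 carry microRNA hairpins that the enzyme DROSHA cuts out in the nucleus. The mature microRNA then pairs with messenger RNAs mainly through its seed, the bases near its 5′ end. Poly-A RNA was selected before sequencing. MALAT1 and the long form of NEAT1 end in a structured 3′ end without a poly-A tail, so how well such RNAs were captured may vary; its part in the counts was not tested.

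The microRNAs carried by the 3 host RNAs are shown because they say which messenger RNAs each host bears on; they were not themselves measured. Sequences are from RefSeq (GRCh38.p14), 5′ to 3′, with the seed, bases 2 to 8, in capitals. For each hairpin shown, the arm that is usually the more abundant is given. The 6 hairpins of MIR17HG on chromosome 13 give these arms.
hsa-miR-17-5p: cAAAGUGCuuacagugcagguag
hsa-miR-20a-5p: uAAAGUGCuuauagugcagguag
hsa-miR-18a-5p: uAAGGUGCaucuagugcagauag
hsa-miR-19a-3p: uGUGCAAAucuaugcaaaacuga
hsa-miR-19b-3p: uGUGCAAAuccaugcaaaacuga
hsa-miR-92a-3p: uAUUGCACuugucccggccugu
Within this cluster miR-17 and miR-20a share a seed, and so do miR-19a and miR-19b. DLEU2, also on chromosome 13, carries miR-15a and miR-16-1, whose seeds are identical, and MIR22HG on chromosome 17 carries miR-22.
hsa-miR-15a-5p: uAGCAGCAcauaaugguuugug
hsa-miR-16-5p: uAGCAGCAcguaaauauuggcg
hsa-miR-22-3p: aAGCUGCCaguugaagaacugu

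The deposited expected counts, estimated reads per gene, summed to between 16546849 and 18537314 per library. The targeted gene had 680.35 and 1025.82 expected counts in shGlud1 cells, against 1065.81 and 1170.81 in shNT cells, and GLUD1 fell (log2 fold change -0.98 with an SE of 0.13, edgeR quasi-likelihood adjusted p = 1.26e-12). The fall of GLUD1 was smaller with total counts (-0.45, adjusted p = 0.003) and with the trend on the median transcript length removed (-0.48, adjusted p = 0.000687). Levels below are CPM, the count over library size, which was corrected by TMM factors (trimmed mean of M values), and fold changes are shGlud1 over shNT. Of 14616 genes tested, 61.0% were called changed at an adjusted p under 0.05, 31.9% as higher and 29.1% as lower, and their median log2 fold change was 0.056. With library totals as the only scaling, that median was 0.57. Over 14266 genes, which are not independent replicates, the fold change went with the length of the longest transcript (Spearman correlation 0.447), so values with each library's length trend removed are given beside the results they alter. Of the 8 glioma line markers checked, 7 had 83 or more counts in every library, while the astrocyte marker GFAP had between 2 and 6 counts. Summed markers were at 21.3 to 23.1 CPM in shGlud1 and 34.4 to 37.6 CPM in shNT cells for neurons, most of it GAD1. For oligodendrocytes they were at 8.20 to 10.2 against 3.92 to 5.49 CPM, most of it MBP (log2 fold change 1.10). MAG had 0 and 2 counts in the shGlud1 libraries, against 9 and 2 in the shNT libraries. The sums were at 283 to 296 against 365 to 407 CPM for blood cells and microglia, nearly all of it CD68. For epithelium they were at 12.9 to 14.2 against 53.5 to 57.6 CPM, nearly all of it KRT14. Among the other neuron markers RBFOX3 was called as higher (log2 fold change 1.80), and SNAP25 (0.81) and SYT1 (0.34) were not called. STMN2, MOG and AIF1 were at 0 in every library and PTPRC, CD3E, CDH1 and KRT5 had at most 3 counts. The part of other cells in the results was not tested. In bulk RNA, fewer cells with an RNA and less of it per cell cannot be told apart.

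The 8 RNAs together took 0.00838% and 0.0109% of the counts in the shGlud1 libraries, against 0.00763% and 0.00842% in the shNT libraries. Of the 8, 7 had enough counts to be tested, and MIR17HG did not. Among them 2 RNAs, TUG1 and MEG3, were called as higher in shGlud1 cells, and 3, MALAT1, MIR22HG and DLEU2, as lower. NEAT1 and KCNQ1OT1 were not called. A share of 5 called among 7 is near the 61.0% of all genes. In the reported scaling the groups did not overlap for 6 of the 7, against 81.0% of all genes tested: TUG1 and MEG3 lay higher in shGlud1 cells, as 42.8% of all genes did, and the other 4 lower, as 38.2% did. With total counts 51.9% of all genes were called as higher and 13.7% as lower, and of the 7 RNAs 3 (TUG1, MEG3 and NEAT1) and 1 (MIR22HG). With the longest-transcript trend removed the shares were 34.7% and 22.2%, and of the 7 RNAs 1 (TUG1) and 5 were called.

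**Figure D1:**
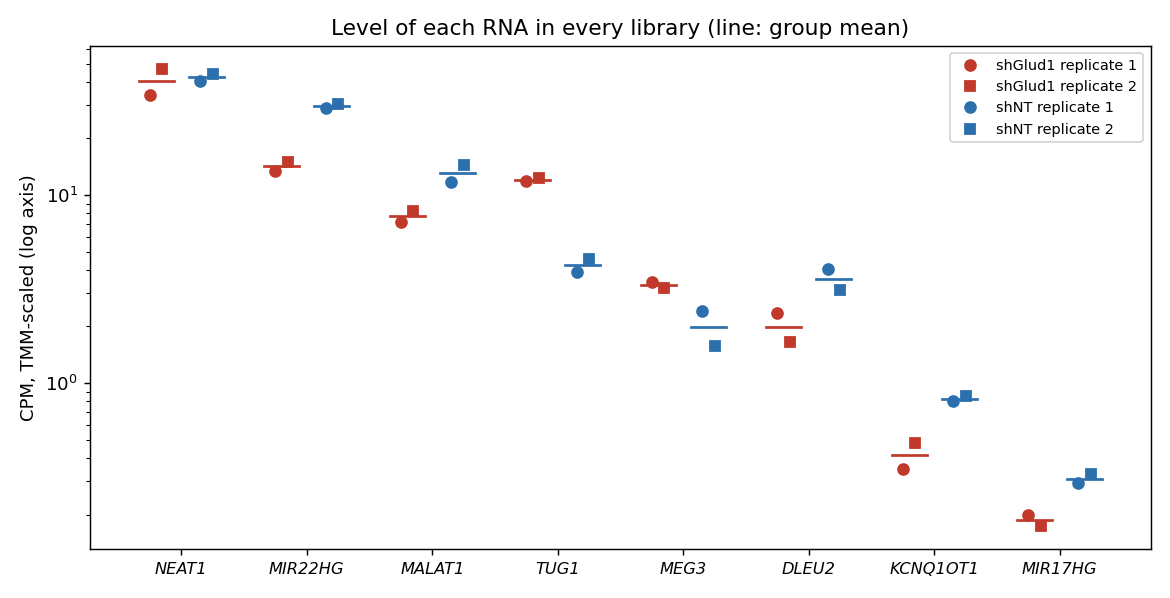
TMM-scaled CPM (log axis) of the 8 RNAs in each library, shGlud1 in red to the left of shNT in blue, with a line at each group mean. TUG1 and MEG3 lie higher in shGlud1, and MIR22HG, MALAT1, DLEU2, KCNQ1OT1 and MIR17HG lie lower. The NEAT1 groups overlap, with shGlud1 at 34.0 and 46.9 CPM and shNT at 40.4 and 44.2 CPM.

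TUG1, a broadly expressed RNA transcribed away from the protein-coding gene MORC2, had the largest rise. Its expected counts were 238 and 283 in the shGlud1 libraries, against 53 and 70 in the shNT libraries, and its level was 12.1 ± 0.27 CPM in shGlud1 and 4.23 ± 0.49 CPM in shNT cells (SD, n = 2 each). Both shGlud1 libraries were far above both shNT libraries. The log2 fold change was 1.51 (edgeR quasi-likelihood adjusted p = 1.45e-10; SE 0.23), and TUG1 stayed called under all 15 alternatives, between 0.86 with length and GC trends removed and 2.03 with total counts. TUG1 lies on chromosome 22 from 30969245 to 30979395 on the plus strand (GENCODE 29, GRCh38).

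MORC2, which encodes a chromatin-compacting ATPase, starts 947 bases from TUG1 on the opposite strand in the GENCODE annotation. It had 26.7 and 28.0 CPM in the shGlud1 libraries, against 7.62 and 9.48 CPM in the shNT libraries. MORC2 thus moved with its neighbour, with a log2 fold change of 1.67 (edgeR quasi-likelihood adjusted p = 3.18e-20; SE 0.18) and values of 1.45 to 2.19 under the alternatives. The genes do not overlap in that annotation. Their RefSeq starts, from which the promoter windows are drawn, differ from the GENCODE ones and lie closer together. The promoter window of TUG1 is shown because its upstream end shares bases with that of MORC2 (chr22:30968725-30969024, minus strand); it spans 250 bases before to 50 after the start (RefSeq, chr22:30969015-30969314, plus strand). Capitals mark the E-box CACGTG, the site bound by MYC and related factors.
TUG1 promoter: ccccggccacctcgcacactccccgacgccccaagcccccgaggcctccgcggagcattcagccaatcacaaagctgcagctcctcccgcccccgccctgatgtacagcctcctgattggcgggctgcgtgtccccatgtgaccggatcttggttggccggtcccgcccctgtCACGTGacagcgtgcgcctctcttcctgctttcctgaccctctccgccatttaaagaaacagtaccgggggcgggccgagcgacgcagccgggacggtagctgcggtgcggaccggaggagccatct
The E-box begins 77 bases before the start. It is its own reverse complement and is present in 7.43% of 27305 promoters of this length, so a match is common. No match was found there to TTCNNGAA or GAANNTTC, which are parts of heat shock elements and also read the same on both strands, nor on either strand to TTTGGCGC or TTTCCCGC, forms of the E2F site. Those motifs occur in 7.84%, 6.87%, 0.66% and 1.66% of all promoters, and none of the 5 motifs overlaps another here.

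MEG3, an imprinted RNA of chromosome 14 (100779410 to 100861031, plus strand), was called as higher by a narrow margin. It had 69 and 73.78 expected counts in the shGlud1 libraries, against 33 and 24 in the shNT libraries, or 3.33 ± 0.17 CPM in shGlud1 and 1.99 ± 0.60 CPM in shNT cells (SD, n = 2 each). The lowest shGlud1 library lay above the highest shNT library, and the shNT pair was the more spread. The log2 fold change was 0.75 (edgeR quasi-likelihood adjusted p = 0.0418; SE 0.33). This call was lost in 9 of 15 alternatives, among them DESeq2 (0.69, adjusted p = 0.2) and the removal of the longest-transcript trend (0.25, adjusted p = 0.526). It was also lost without shGlud1 replicate 1 (0.68, 0.155), without shGlud1 replicate 2 (0.80, 0.0912) and without shNT replicate 2 (0.46, 0.356). MEG8, an RNA of the same cluster that overlaps MEG3, had 2 and 0 counts in the shGlud1 libraries and 0 and 2 in the shNT libraries, and the microRNA rows inside MEG3, MIR770 and MIR2392, were at 0 in every library.

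NEAT1, the paraspeckle scaffold, was the most abundant of the 8 by read count. Its expected counts were 681 and 1081 in the shGlud1 libraries, against 552 and 677 in the shNT libraries. On the TMM scale it was at 34.0 and 46.9 CPM in shGlud1 cells, on either side of the 40.4 and 44.2 CPM of shNT cells. The log2 fold change of NEAT1 was -0.064 (edgeR quasi-likelihood adjusted p = 0.698; SE 0.14) and its direction followed the scaling: with total counts it was called as higher at 0.46 (adjusted p = 0.00571), while with the longest-transcript trend removed it was called as lower at -0.60 (adjusted p = 2.28e-05). NEAT1 lies on chromosome 11 from 65422774 to 65445540, its longest annotated transcript has 22743 bases, and 12 tested genes, NEAT1 included, are at least as long. Its value was also on the other side of 0 without shGlud1 replicate 1 (0.13) and without shNT replicate 2 (0.0008). A gene-level count cannot separate the short, polyadenylated form from the long one.

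MALAT1, which lies beside NEAT1 on chromosome 11 (65497688 to 65506516), fell on the TMM scale. It had 143 and 190 expected counts in the shGlud1 libraries, against 160 and 221 in the shNT libraries, and its level was 7.70 ± 0.78 CPM in shGlud1 and 13.1 ± 1.92 CPM in shNT cells (SD, n = 2 each). The groups did not overlap in CPM, although the counts themselves did. The log2 fold change of MALAT1 was -0.76 (edgeR quasi-likelihood adjusted p = 0.000343; SE 0.20). The fall was smaller and not called with total counts (-0.24, adjusted p = 0.344), with the median-transcript trend removed (-0.40, 0.0651) and without shNT replicate 2 (-0.61, 0.0523), and it was larger with the longest-transcript trend removed (-1.21).

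KCNQ1OT1 is transcribed on the minus strand of chromosome 11 (2608328 to 2699994) from within KCNQ1, a potassium channel gene. It had 7 and 11 counts in the shGlud1 libraries, against 11 and 13 in the shNT libraries, which is 0.35 and 0.48 CPM against 0.81 and 0.85 CPM. The groups did not overlap in CPM, but at this depth the log2 fold change of -0.98 (SE 0.62) was not called (adjusted p = 0.164, edgeR's quasi-likelihood test). KCNQ1OT1 was called in the fits with a length trend removed, at -1.40 for the longest transcript (adjusted p = 0.0422). No other tested gene has a transcript within 2-fold of its 91667 bases, so the trend at that length is drawn from much shorter transcripts. KCNQ1, on the opposite strand, had 9 and 19 counts in the shGlud1 libraries, against 23 and 40 in the shNT libraries, and fell (log2 fold change -1.73 with an SE of 0.48, edgeR quasi-likelihood adjusted p = 0.00076). That call was lost without shNT replicate 2 (-1.38, adjusted p = 0.0768). The kit does not mark strand, so reads in the region shared by KCNQ1 and KCNQ1OT1 cannot be assigned with certainty.

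**Figure D2:**
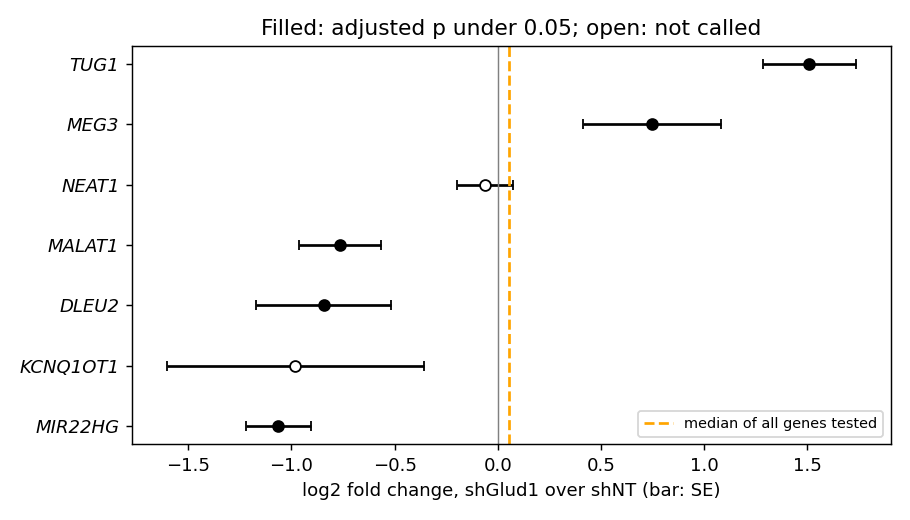
Log2 fold change of shGlud1 over shNT (x axis) with its standard error for the 7 tested RNAs; filled points passed an adjusted p of 0.05 and the dashed line is the median of all genes tested, 0.056. TUG1 is highest at 1.51 and MIR22HG lowest at -1.06, and KCNQ1OT1 has the widest error, 0.62.

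MIR22HG, the host of miR-22, had the largest called fall of the 8. Its expected counts were 270 and 344 in the shGlud1 libraries, against 395 and 467 in the shNT libraries, and its level was 14.2 ± 1.02 CPM in shGlud1 and 29.7 ± 1.12 CPM in shNT cells (SD, n = 2 each). The groups lay well apart. The log2 fold change of MIR22HG was -1.06 (edgeR quasi-likelihood adjusted p = 1.18e-10; SE 0.16), and it stayed called under all 15 alternatives, from -1.13 without shGlud1 replicate 2 to -0.54 with total counts.

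WDR81, which encodes an endosomal trafficking protein, starts 651 bases from MIR22HG on the opposite strand, and the annotated genes overlap at their starts. It had 422.63 and 434.99 expected counts in the shGlud1 libraries, against 439.77 and 476.37 in the shNT libraries, or 20.0 ± 1.6 CPM in shGlud1 and 31.7 ± 0.79 CPM in shNT cells (SD, n = 2 each). WDR81 fell as well, by less (log2 fold change -0.66 with an SE of 0.15, edgeR quasi-likelihood adjusted p = 2.77e-05), but not with total counts (-0.15, adjusted p = 0.441). Reads in the region that MIR22HG and WDR81 share cannot be assigned with certainty, because the kit does not mark strand. The difference between the fold changes of these neighbours was not tested. The RefSeq promoter window of MIR22HG (chr17:1716161-1716460, minus strand) is shown because it shares bases with that of WDR81 (chr17:1716273-1716572, plus strand). The MIR22HG window lies within the gene as GENCODE 29 gives it (1711493 to 1717174), so the RefSeq start differs.
MIR22HG promoter: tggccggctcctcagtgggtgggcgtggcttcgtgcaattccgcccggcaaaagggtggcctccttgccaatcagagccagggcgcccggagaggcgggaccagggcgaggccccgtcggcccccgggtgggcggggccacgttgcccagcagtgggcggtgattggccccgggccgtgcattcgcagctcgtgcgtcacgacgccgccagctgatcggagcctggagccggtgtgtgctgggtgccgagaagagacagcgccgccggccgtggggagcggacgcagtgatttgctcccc
None of the 5 motifs named above was found in it, so it has no capitals. Of its bases 72.3% are G or C, against a median of 58.3% over all promoters and 67.7% in the TUG1 window. Among the 6 RNAs with a promoter in the table, DLEU2 also held CACGTG, beginning 230 bases before its start. The windows of MALAT1, MEG3 and MIR17HG held none of the 5. The MEG3 window (chr14:100825858-100826157) also lies inside the gene as GENCODE 29 gives it.

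DLEU2, the host of miR-15a and miR-16-1, lies on chromosome 13 (49982552 to 50125720, minus strand) in a region often deleted in chronic lymphocytic leukaemia. It had 47 and 38 expected counts in the shGlud1 libraries, against 55 and 48 in the shNT libraries, and its level was 2.00 ± 0.49 CPM in shGlud1 and 3.58 ± 0.63 CPM in shNT cells (SD, n = 2 each). The groups did not overlap in CPM, and DLEU2 was called as lower with a log2 fold change of -0.84 (edgeR quasi-likelihood adjusted p = 0.0185; SE 0.33). The call was lost with total counts (-0.33, adjusted p = 0.398), with DESeq2 (-0.90, 0.0785), without shGlud1 replicate 2 (-0.60, 0.194) and without shNT replicate 1 (-0.66, 0.186).

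DLEU2 overlaps TRIM13 and DLEU1 on the opposite strand, so part of its reads cannot be assigned with certainty. TRIM13, which encodes a ubiquitin ligase, was at 6.2 and 6.29 CPM in shGlud1 cells, against 8.06 and 6.67 CPM in shNT cells (log2 fold change -0.23, adjusted p = 0.377, edgeR's quasi-likelihood test). The noncoding DLEU1 was at 5.55 and 6.34 CPM in shGlud1 cells, against 3.30 and 5.49 CPM in shNT cells (0.43, adjusted p = 0.128), and was called as higher with total counts (0.95), with the longest-transcript trend removed (0.60), with length and GC trends removed (0.54) and without shNT replicate 2 (0.85). The values of DLEU2 and DLEU1 thus lay on opposite sides of 0, with a call for DLEU2 alone. The microRNA rows inside DLEU2, MIR16-1 and MIR3613, were at 0 in every library.

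**Figure D3:**
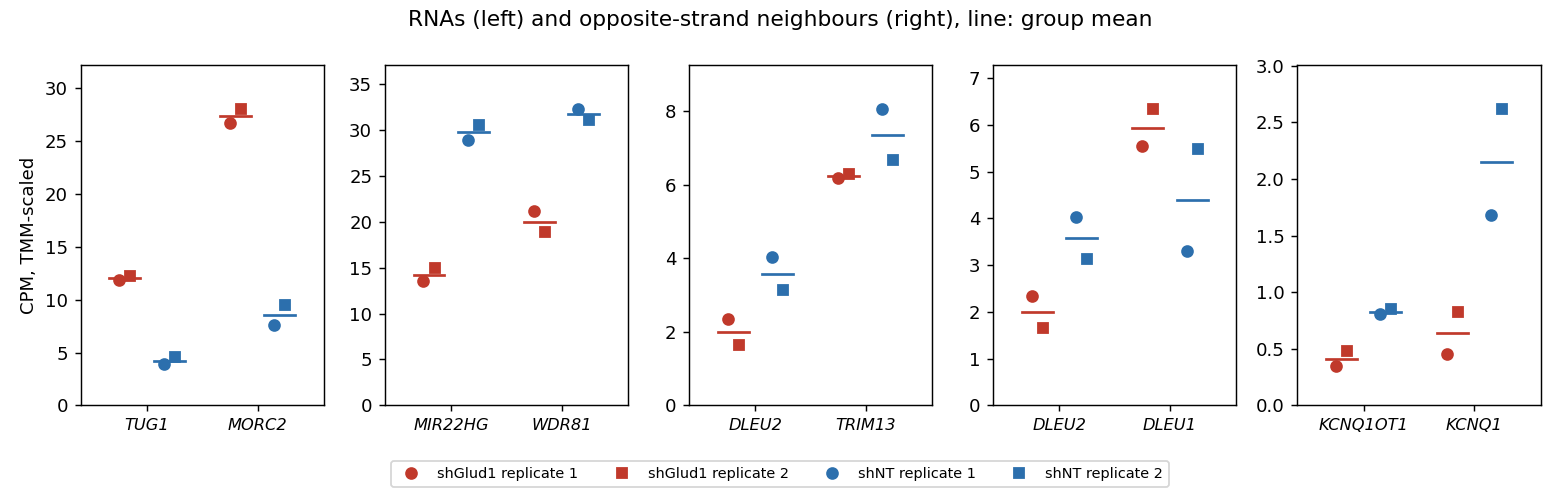
TMM-scaled CPM (linear axes from 0) of 4 RNAs in 5 panels, each RNA at the left of its panel (DLEU2 in 2 of them), and of the gene on the opposite strand at the right, with shGlud1 in red left of shNT in blue and a line at each group mean. TUG1 and MORC2 are both higher in shGlud1, MIR22HG and WDR81 both lower, KCNQ1OT1 and KCNQ1 both lower at under 3 CPM, while DLEU2 is lower beside TRIM13, which was not called, and DLEU1, at 5.55 and 6.34 CPM in shGlud1 against 3.30 and 5.49 CPM in shNT, lies higher without a call.

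MIR17HG, the host of the miR-17 to miR-92a cluster, had 4 and 4 counts in the shGlud1 libraries, against 4 and 5 in the shNT libraries, and was too low for the test. The summed counts were 8 in shGlud1 (95% exact Poisson interval 3.45 to 15.8) and 9 in shNT cells (4.12 to 17.1). On the TMM scale the ratio of shGlud1 to shNT was 0.598, with an exact 95% interval of 0.201 to 1.75 that covers counting error only. That interval includes both falls and rises, so the direction could not be told at this depth. Without a filter on low counts, edgeR gave MIR17HG a log2 fold change of -0.67 (SE 1.12, adjusted p = 0.678). Its level was 0.20 and 0.17 CPM in shGlud1 cells, against 0.29 and 0.33 CPM in shNT cells.

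Some microRNAs with the same seeds lie in other host genes, which were counted well. These hosts are named for the shared seed and not for their rank, after their values had been seen. MCM7, a subunit of the replicative helicase, carries miR-106b and miR-93 with the miR-17 seed and miR-25 with the miR-92a seed.
hsa-miR-106b-5p: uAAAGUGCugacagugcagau
hsa-miR-93-5p: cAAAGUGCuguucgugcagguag
hsa-miR-25-3p: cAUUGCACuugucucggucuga
MCM7 was at 219.7 and 223 CPM in shGlud1 cells, against 179 and 157 CPM in shNT cells, and rose (log2 fold change 0.40 with an SE of 0.13, edgeR quasi-likelihood adjusted p = 0.00643). SMC4, a condensin subunit, carries miR-15b and a second copy of miR-16, with the DLEU2 seed.
hsa-miR-15b-5p: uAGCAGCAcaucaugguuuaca
SMC4 was at 34.1 and 41.3 CPM in shGlud1 cells, against 12.2 and 15.8 CPM in shNT cells, and rose (1.43, SE 0.15, adjusted p = 4.14e-19). MIR497HG carries miR-195 and miR-497, also with the DLEU2 seed, and fell to 2.70 ± 0.14 CPM in shGlud1 cells, against 4.97 ± 0.01 CPM in shNT cells (SD, n = 2 each; -0.88, SE 0.28, adjusted p = 0.00414). In the reported fit, hosts of the miR-15 and miR-16 seed were therefore called in both directions, SMC4 as higher and DLEU2 and MIR497HG as lower. With total counts neither fall was called, with DLEU2 at -0.33 (adjusted p = 0.398, edgeR's quasi-likelihood test).

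To set the RNAs in order of level, CPM was divided by the length of the longest annotated transcript. In shGlud1 cells MIR22HG was highest at 5.41 CPM per kb, followed by NEAT1 (1.78), TUG1 (1.62), MALAT1 (0.88), DLEU2 (0.65), MEG3 (0.26), MIR17HG (0.066) and KCNQ1OT1 (0.0045). In shNT cells the order of these levels was MIR22HG (11.3 CPM per kb), NEAT1 (1.86), MALAT1 (1.5), DLEU2 (1.17), TUG1 (0.57), MEG3 (0.15), MIR17HG (0.11) and KCNQ1OT1 (0.0090). TUG1 was at rank 3 in shGlud1 and rank 5 in shNT cells. NEAT1 and TUG1 overlapped in shGlud1 cells (1.5 to 2.06 and 1.59 to 1.64 CPM per kb), and no other neighbours in either order did. The order depends on the length used, above all for NEAT1 and for RNAs with many annotated forms.

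**Figure D4:**
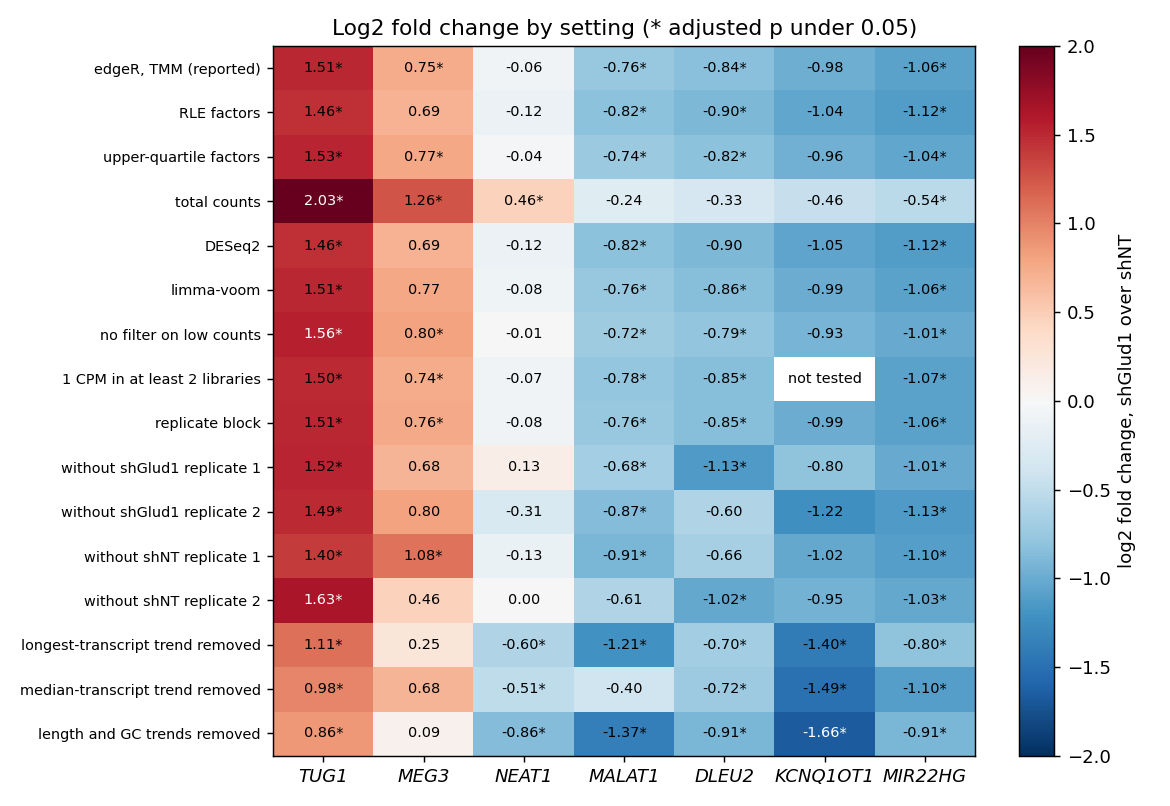
Log2 fold change of shGlud1 over shNT for the 7 tested RNAs (columns) under the reported fit and 15 alternatives (rows), with an asterisk where the adjusted p was under 0.05. TUG1 and MIR22HG carry an asterisk in every row, MEG3 in 7 of 16, and NEAT1 changes colour between total counts (0.46) and the fits with a length trend removed (-0.51 to -0.86).

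The genes whose pattern over the 4 libraries lay nearest to each RNA, out of tested genes averaging 5 CPM or more, were found by the root mean square difference of log2(CPM + 0.5) after removing each gene's mean. For TUG1 these were ZNF629 (difference 0.011) and PRKCA (0.023), and for MIR22HG TSNARE1 (0.019) and RALA (0.023). For MALAT1 they were NFIL3 (0.022) and FTH1P11 (0.030), a pseudogene that can share reads with FTH1, and for NEAT1 TFAM (0.026) and TRMT5 (0.027). For MEG3 they were RFX2 (0.017) and SSX1 (0.017), for DLEU2 FBXO6 (0.032) and ACP5 (0.033), and for KCNQ1OT1 SLC25A28 (0.011) and PTX3 (0.019). With 4 libraries in 2 groups, such a match says mainly that a gene had a like fold change. This does not hold for KCNQ1OT1, which was at 0.35 to 0.85 CPM, so that the added 0.5 shrinks its differences. Its nearest genes had log2 fold changes of -0.53 and -0.52, against -0.98 for KCNQ1OT1 itself.

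Other long noncoding RNAs gave the members a background. Of the 1222 long noncoding RNA genes tested, 136 rose and 375 fell, with a median log2 fold change of -0.33 against 0.056 over all genes, but with the longest-transcript trend removed 329 rose and 182 fell, with a median of 0.23 against 0.16, and with total counts 291 rose and 173 fell. Their longest transcripts had a median of 1592 bases, against 3374 over all genes tested. Of all genes 31.9% rose and 29.1% fell in the reported fit. The shares were 34.7% and 22.2% with the longest-transcript trend removed, and 51.9% and 13.7% with total counts. In a list of well-known long noncoding RNAs, 2 of 19 tested rose and 12 fell (median -0.54). LINC00657, the RNA also called NORAD that binds PUMILIO proteins, rose to 74.4 ± 14.5 CPM in shGlud1 cells, against 33.7 ± 0.27 CPM in shNT cells (SD, n = 2 each), and UCA1 by a log2 fold change of 2.69. EPB41L4A-AS1 fell to 4.91 ± 0.55 CPM in shGlud1 cells, against 31.9 ± 3.11 CPM in shNT cells (log2 fold change -2.70). LINC00152, which may share reads with the microRNA host MIR4435-1HG named below, fell by 1.13 on the log2 scale. The count of falls in this list was 3 with total counts (4 rose), 6 with the longest-transcript trend removed (4 rose) and 7 without shNT replicate 1.

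Among the other noncoding microRNA hosts, 1 of 5 tested rose and 3 fell (median -0.88), against 31.9% and 29.1% of all genes (median 0.056). With the longest-transcript trend removed 1 rose and 4 fell, against 34.7% and 22.2% of all genes. With total counts 1 rose and 2 fell, against 51.9% and 13.7%. In the reported fit the named hosts were as follows. MIR210HG, whose microRNA is known to be induced in hypoxia, rose (log2 fold change 0.83), and MIR4435-1HG (-0.91) and MIR155HG (-2.93) fell. MIR4435-1HG had 799.33 and 783.32 expected counts in the shGlud1 libraries, against 929.47 and 1078.56 in the shNT libraries. Those of LINC00152 were 941.67 and 924.68 against 1293.53 and 1465.44, with fractions that complement them in every library. Reads may thus be shared between MIR4435-1HG and LINC00152, and their falls may not be separate results. MIR155HG was at 0.14 ± 0.05 CPM in shGlud1 and 1.10 ± 0.20 CPM in shNT cells (SD, n = 2 each), too few reads to fix how far it fell. Without shGlud1 replicate 1, 2 of these hosts rose. Of 19 protein-coding hosts 7 rose and 4 fell (median 0.26), which is 36.8% and 21.1%, near the 31.9% and 29.1% of all genes. The difference between the groups of hosts was not tested. The ubiquitin ligase gene HUWE1 rose to 155 ± 4.52 CPM in shGlud1 cells, against 38.1 ± 0.63 CPM in shNT cells, and the phosphatase gene CTDSP2 rose by a log2 fold change of 1.28. COPZ1 (-0.49) and PDE2A (-0.90) fell on the TMM scale, but with total counts COPZ1 was at 0.026. In that scaling 14 of these hosts rose and 0 fell, against 51.9% and 13.7% of all genes. Without shNT replicate 1, 0 of these hosts fell, and without shGlud1 replicate 2, 2 did. PDE2A was not called without shGlud1 replicate 1 (-0.75) or without shNT replicate 1 (-0.68).

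In the reported fit the machinery that cuts and loads microRNAs was mostly higher in shGlud1 cells. Of 18 genes tested, 11 rose and 1 fell, against 31.9% and 29.1% of all genes (median 0.74 against 0.056). The longest transcripts of the 18 had a median of 6149 bases, against 3374 over all genes. TNRC6A, an Argonaute partner in silencing, rose to 15.5 ± 2.07 CPM in shGlud1 cells, against 3.8 ± 0.01 CPM in shNT cells (log2 fold change 2.03), and XPO5, which exports hairpins to the cytoplasm, by 1.06. TARBP2, the DICER1 partner, fell (-0.96). With the longest-transcript trend removed 8 rose and 3 fell (median 0.43), against 34.7% and 22.2% of all genes (median 0.16). With length and GC trends removed 5 of the 18 fell. Leaving out shGlud1 replicate 1 or shGlud1 replicate 2 gave 2 that fell.

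Proteins of the bodies that MALAT1 and NEAT1 join were also examined, beside a median of 0.056 and shares of 31.9% risen and 29.1% fallen over all genes. Of 8 nuclear speckle protein genes 5 rose and 0 fell (median 0.78), among them SON, at 78.5 ± 2.43 CPM in shGlud1 and 20.3 ± 2.22 CPM in shNT cells (log2 fold change 1.95), and SRRM2 (1.54), which form the speckle core. Of 27 paraspeckle protein genes 15 rose and 4 fell (median 0.30). TARDBP (1.54) and TAF15 (1.45), which encode RNA-binding proteins, rose, and the cold-inducible CIRBP (-1.07) fell. Without shNT replicate 1 or with total counts, 1 gene of this list fell. With total counts 51.9% of all genes rose and 13.7% fell, and 8 of the speckle genes rose. With the longest-transcript trend removed 13 paraspeckle genes rose and 6 fell (median 0.22), against 34.7% and 22.2% of all genes (median 0.16). In that fit 6 speckle genes rose and 0 fell (median 0.70). With length and GC trends removed 11 paraspeckle genes rose and 6 fell. Among genes of Polycomb and related silencing 5 of 10 rose and 1 fell (median 0.64), and with total counts 8 rose and 1 fell. The maintenance DNA methyltransferase gene DNMT1 (1.43) and RBBP4 (1.11), a histone-binding subunit of PRC2, rose.

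Of 18 tested genes around the 8 loci, 5 rose and 6 fell (median 0.053), against 31.9% and 29.1% of all genes (median 0.056). With total counts 9 rose and 2 fell (median 0.57), against 51.9% and 13.7% of all genes (median 0.57). With length and GC trends removed 8 of the 18 rose and 4 fell. Beside MORC2, the splicing factor gene PRPF8 near MIR22HG rose (1.12). SSSCA1, near NEAT1 and MALAT1, fell (-0.96), as did the imprinted PHLDA2 of the KCNQ1OT1 cluster (-0.76). Neither fall held with length and GC trends removed, where PHLDA2 was called as higher (0.33, adjusted p = 0.00732, edgeR's quasi-likelihood test) and SSSCA1 was at 0.065. PHLDA2 was at 0.052 with the longest-transcript trend alone removed.

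**Figure D5:**
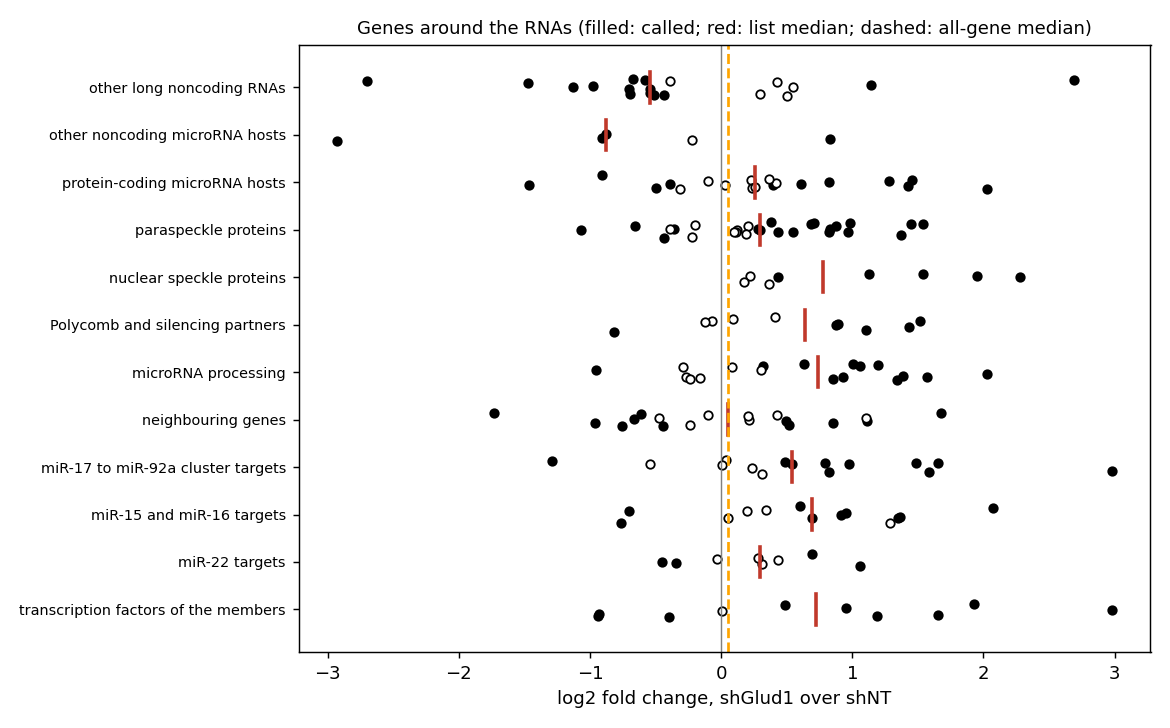
Log2 fold change of shGlud1 over shNT (x axis) for each tested gene of 12 lists (rows; filled points passed an adjusted p of 0.05), with the list median in red and the all-gene median of 0.056 dashed. The medians of long noncoding RNAs (-0.54) and noncoding hosts (-0.88) lie left of the all-gene median, and those of nuclear speckle (0.78) and microRNA processing genes (0.74) lie right of it.

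Known targets of the hosted microRNAs were counted as well, without measuring the microRNAs; over all genes the median was 0.056, with 31.9% risen and 29.1% fallen. Of 15 targets of the miR-17 to miR-92a cluster 9 rose and 1 fell (median 0.54), with rises of E2F2 (2.98), a cell cycle factor, and the TGF-beta receptor gene TGFBR2 (1.59) and a fall of the matrix gene THBS1 (-1.29). Of 13 targets of miR-15 and miR-16, 7 rose and 2 fell (median 0.69). CCND1, which encodes cyclin D1, was at 282 ± 20.9 CPM in shGlud1 and 111 ± 10.7 CPM in shNT cells (log2 fold change 1.35). The cell cycle kinase gene WEE1 rose by 2.07, and the growth factor genes VEGFA (-0.76) and FGF2 (-0.70) fell. Neither fall was called with total counts (-0.24 and -0.18), where 0 of these targets fell. Of 8 targets of miR-22, 2 rose, SP1 (1.06) and CDK6 (0.69), and 2 fell, MAX (-0.45) and MYCBP (-0.35), with a median of 0.29. With the longest-transcript trend removed 1 rose and 1 fell, and the median was -0.078 against 0.16 over all genes. With total counts 5 rose and 0 fell, against 51.9% and 13.7% of all genes. Both falls were on the other side of 0 with total counts (0.065 and 0.17), and neither was called without shNT replicate 1. CDK6 was not called with the longest-transcript trend removed (0.20, adjusted p = 0.434, edgeR's quasi-likelihood test), without shGlud1 replicate 2 (0.44, 0.157) or without shNT replicate 2 (0.60, 0.0912), and MYCBP was not called without shGlud1 replicate 2 (-0.34, 0.0514) or without shNT replicate 2 (-0.32, 0.18).

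Among 10 tested transcription factor genes, chosen because several are known to act on these RNAs, 6 rose and 3 fell (median 0.72), against 31.9% and 29.1% of all genes (median 0.056). MYC and the E2F factors are known activators of MIR17HG, and hypoxia-inducible factors of NEAT1. HIF1A rose to 117 ± 14.1 CPM in shGlud1 cells, against 30.6 ± 1.24 CPM in shNT cells (log2 fold change 1.93), and E2F2 rose as given above. Of the other E2F genes listed, E2F3 rose (1.65). E2F1, at a mean of 134 CPM in each group, was not called (0.0056, adjusted p = 0.973, edgeR's quasi-likelihood test). MYC was at 16.3 ± 1.8 CPM in shGlud1 and 31.2 ± 1.98 CPM in shNT cells and fell (-0.94). The adjusted p of HIF1A, E2F2 and MYC was in each case at most 6.03e-09 in edgeR's quasi-likelihood test.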

How the data were processed

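RNA from 2 shGlud1 and 2 shNT libraries was sequenced. Per the labels' protocols, poly-A RNA came from 1 µg of total RNA, the kit was TruSeq V2, which keeps no strand, and 12 cycles of PCR, and paired reads had 150 bases. The authors deposited expected counts per human Ensembl gene, of which 20.05% of the values above 0 are not whole; every value column belonged to a sample. The submitters' processing notes list mm8, a mouse build, and Bowtie 0.12.2, although the rows carry human IDs. For the counting program and the human annotation, no name is given in these sources. How shared reads were split could change counts of overlapping genes. Without molecular identifiers, counting intervals cover counting error only.

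Counts were rounded and tested in edgeR 4.0.16 (R 4.3.3) with filterByExpr (minimum count 10), TMM factors (1.15 and 1.25 for shGlud1, 0.826 and 0.845 for shNT) and the robust quasi-likelihood test, without a block. p was adjusted by Benjamini-Hochberg over 14616 genes, and the SE is the fold change over the square root of F. The code was tested on simulated data. Lengths, types and positions came from GENCODE 29 by Ensembl ID (97.6% of tested genes). Alternatives were RLE, upper-quartile and total-count scaling, DESeq2 1.42.0, limma-voom 3.58.1, other filters, a replicate block, leaving out each library, and removal of lowess trends (span 0.3) on transcript length and GC. Named are the 8 RNAs, GLUD1, up to 2 risen and 2 fallen genes of each list by lowest p, and the 2 nearest genes of each RNA. Overlapping genes, hosts of the same seeds, and E2F1 and E2F3 beside E2F2 are named too. Some genes of the lists are counted but not reported singly here. The RNAs and the lists were chosen with earlier results of these data known. Gene groups are given as counts and medians beside those of all genes tested, with no list test. RefSeq promoters matched 6 of the 8 RNAs. Python 3.11.15 with pandas 2.3.3, scipy 1.17.1 and matplotlib 3.10.9 made the summaries and figures.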

Additional observations from a re-analysis of the deposited data

How the results depend on the processing

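TUG1, MIR22HG and GLUD1 kept their direction and call under the 15 alternatives. For the other RNAs the values were as follows, as log2 fold changes of shGlud1 over shNT. With total counts MALAT1 was at -0.24, DLEU2 at -0.33 and NEAT1 at 0.46, so that 1 RNA (MIR22HG) was called as lower; 7592 genes were then called as higher and 2000 as lower, and of the list genes 110 and 13, against 72 and 39 in the reported fit. MEG3 was not called with RLE factors (0.69), DESeq2 (0.69) or limma-voom (0.77), nor with the trend on the longest transcript (0.25), the median transcript (0.68) or length and GC (0.088) removed, which left 1 RNA called as higher in each. DLEU2 was at -0.90 with DESeq2. With the longest-transcript trend removed NEAT1 was at -0.60 and KCNQ1OT1 at -1.40, and with length and GC trends removed they were at -0.86 and -1.66, which made 5 RNAs called as lower in each; with the median-transcript trend removed MALAT1 was at -0.40, NEAT1 at -0.51 and KCNQ1OT1 at -1.49. The cause was not tested.

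Leaving out 1 library at a time gave 1 to 2 RNAs called as higher, MALAT1 at -0.91 to -0.61, MEG3 at 0.46 to 1.08, DLEU2 at -1.13 to -0.60 and NEAT1 at -0.31 to 0.13; 2 to 3 RNAs were called as lower, and of the list genes 24 (without shNT replicate 1) to 37. Among other named genes, values on the other side of 0 were TRIM13 (0.29), COPZ1 (0.026), MAX (0.065) and MYCBP (0.17) with total counts, PHLDA2 (0.052) with the longest-transcript trend removed, and PHLDA2 (0.33) and SSSCA1 (0.065) with length and GC trends removed. The replicate number as a block left every call of the 7 RNAs as reported, with TUG1 at 1.51, MEG3 at 0.76 and NEAT1 at -0.077; same-numbered libraries shared only a number, their deviations having a correlation of 0.041 over genes. KCNQ1OT1 had too few counts for the filter of 1 CPM, and low counts limit the precision for MIR17HG, KCNQ1OT1, MEG3 and DLEU2.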
